A study of Homo sapiens with 6 samples.

Results

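Heat shock protein genes of the cytosol and of mitochondria were examined in RNA-seq libraries of A2780 cells, an established line from a human ovarian cancer. The list held 7 cytosolic genes that heat shock factor 1 (HSF1) is known to act on (HSPA8, HSPH1, HSP90AA1, HSP90AB1, HSPB1, DNAJB1 and BAG3) and 3 mitochondrial chaperone genes (HSPD1, HSPE1 and HSPA9). Members were found by their gene symbol, and 9 of the 10 were in the count table, among 16571 symbols in all. HSPH1 was not analysed here. The cells of both groups had been infected with lentivirus, either with pGIPZ-NC, the control vector (the controls below), or with shUSP39, a short hairpin that targets the splicing factor gene USP39. Each group had 3 libraries, which the design text calls biological replicates. It does not describe separate infections or cultures, so the p-values below measure the spread between these libraries. The labels do not name the hairpin sequence behind the shUSP39 libraries.

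Chaperones bind unfolded proteins and help them to fold. HSP70 proteins such as HSPA8 work in cycles of ATP hydrolysis that J-domain proteins such as DNAJB1 start and nucleotide exchange factors such as BAG3 end, and HSP90 proteins take over part-folded kinases and receptors. When unfolded proteins build up in the cytosol, HSF1 trimers bind heat shock elements, inverted repeats of the unit GAA, and raise transcription of these genes. The mitochondrial matrix has its own HSP70 (HSPA9) and a chaperonin barrel of HSP60 (HSPD1) with its lid HSP10 (HSPE1), which are known to rise in the mitochondrial unfolded protein response.

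The libraries held 28294819 to 32939264 counts, of which the 9 members took 0.774% to 0.809%. Genes with at least 1 count numbered 12662 to 12809 in pGIPZ-NC and 12819, 15446 and 14890 in shUSP39 replicates 1, 2 and 3, so calls that end in a fit with shUSP39 replicate 1 as the only knockdown library are named. USP39 was not analysed here, so its level could not be used to check the labels. The labels call A2780 a serous ovarian cancer line, but EPCAM, CDH1, PAX8 and MSLN, which mark such epithelium, reached at most 0.203 CPM (counts per 1000000 after scaling of the libraries) in any library, while the keratin gene KRT18 was at 20.8 to 36.3 CPM. Of the mesenchymal genes VIM was at 10721 to 11364 CPM and CDH2 at 0.345 to 1.49 CPM. The 8 epithelial markers that were measured summed to 46.8 to 49.3 CPM in the controls and 34 to 40.9 CPM in shUSP39. KRT19 was at 21.8 to 25.8 against 1.72 to 2.22 CPM and KRT8 at 0.878 to 1.14 against 0 to 0.0937 CPM. KRT18 was at 20.8 to 23.9 against 30.5 to 36.3 CPM and MUC16 at 0.0308 to 0.157 against 0.187 to 4.9 CPM. The 9 markers of other cell types summed to 1544 to 1591 CPM in the controls and to 866 to 907 CPM in shUSP39. Almost all of it was COL3A1 and ACTA2. In the same list CD68 was at 9.08 to 11.9 CPM and COL1A1 at 5.84 to 8.68 CPM over all libraries. The leukocyte gene PTPRC and the endothelial gene PECAM1 had at most 7 counts in a library, and CDH5 of the same list had at most 13. The part of these differences in the results below was not tested, and in bulk RNA less RNA per cell and fewer cells of a kind cannot be told apart.

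Heat shock elements were looked for in the promoters of all members, because the cytosolic members were listed as genes that HSF1 acts on. That listing does not mean that HSF1 leaves the mitochondrial members alone. RefSeq promoter windows (GRCh38.p14, 250 bases before to 50 after each listed start) were searched for 3 alternating units, GAANNTTCNNGAA or TTCNNGAANNTTC, and for 2 units, GAANNTTC or TTCNNGAA, which also occur inside the longer motif. Each motif is its own reverse complement or that of its partner, so both strands were covered. Of all 27305 genes with a window, 0.608% held the longer motif and 16.2% the shorter. Among the cytosolic members 3 of 7 genes held the longer motif (HSPA8, HSP90AA1 and HSP90AB1) and 5 of 7 the shorter, while 1 of 3 mitochondrial members held the longer (HSPD1) and 2 of 3 the shorter. The elements below are shown because they differ between members that are otherwise listed together. Capitals mark the motif, on the strand of the gene and from 5′ to 3′, and 1 element is shown where a gene held several.
HSPA8, chr11:123062171-123062199, minus strand: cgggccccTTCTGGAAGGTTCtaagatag
HSP90AA1, chr14:102087112-102087140, minus strand: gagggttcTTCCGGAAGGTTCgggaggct
HSP90AB1, chr6:44247823-44247851, plus strand: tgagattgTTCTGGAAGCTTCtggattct
DNAJB1, chr19:14518456-14518485, minus strand: cgggcggggcgGAAGGTTCtggagggggct
HSPB1, chr7:76302480-76302509, plus strand: ccttaacgagaGAAGGTTCcagatgagggc
HSPD1, chr2:197500062-197500090, minus strand: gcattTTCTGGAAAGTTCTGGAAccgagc
The first capital stood at position -55 from the start in HSPA8, -88 in HSP90AA1, -112 in HSP90AB1, -77 in DNAJB1, -182 in HSPB1 and -245 in HSPD1. In HSPD1 this was counted from the start farther from HSPE1. HSPD1 and HSPE1 point away from each other, and their nearest starts lie 105 bases apart. The HSPD1 element lies between the starts listed for HSPD1, and so downstream of the start nearer to HSPE1. It lies 294 to 311 bases before the start of HSPE1 and so outside the window of HSPE1. No match was found in the windows of BAG3, HSPE1 or HSPH1. A match is a description of the letters and does not show binding, and a window without a match says only that these letters are not in it.

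Whether the heat shock genes moved with the knockdown was tested, shUSP39 against the controls, by edgeR's quasi-likelihood test over 10695 genes, with Benjamini-Hochberg adjustment over all of them. BAG3 and DNAJB1 rose and HSPB1 and HSPE1 fell at an adjusted p under 0.05, and HSPA8, HSP90AA1, HSP90AB1, HSPD1 and HSPA9 did not pass. That is 4 of 9 members, where 33.6% of all tested genes passed. Among the 2187 tested genes with a mean of at least 100 CPM 56.8% passed, and among the 7 members at that level 3 did. HSPB1 was the only member that also changed beyond 2-fold, as did 6.81% of all tested genes (4.53% higher and 2.28% lower). In 4 of 9 members the libraries of the groups did not overlap, against 44.2% of all tested genes. The median log2 fold change was -0.04 over the 9 members and 0.01 over all tested genes.

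**Figure D1:**
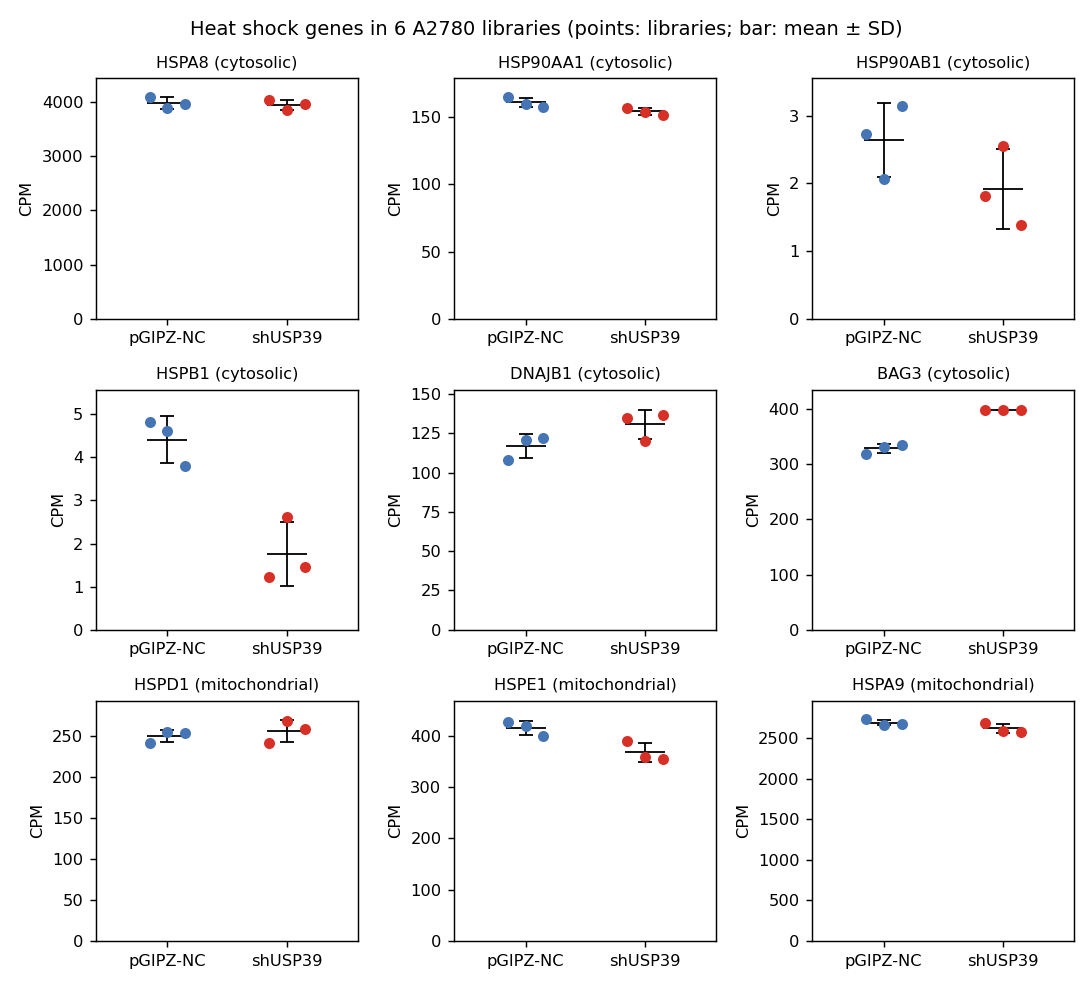
Level of the 9 measured members in CPM (vertical axes, each from 0) in the 3 pGIPZ-NC libraries (blue) and the 3 shUSP39 libraries (red), each point 1 library and each bar the mean ± SD. The groups are apart in HSP90AA1, HSPB1, BAG3 and HSPE1 and share a range in the other 5 genes.

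BAG3 rose and HSPB1 fell, and the libraries of the groups did not overlap in either gene. BAG3 (chromosome 10, 121410892 to 121437331, plus strand, GRCh37), a cochaperone that couples HSP70 to small heat shock proteins and to autophagy, had 319, 332 and 335 CPM in pGIPZ-NC replicates 1, 2 and 3 and 398, 399 and 398 CPM in shUSP39 replicates 1, 2 and 3. All shUSP39 libraries were above all control libraries and lay closer together than the controls did. The log2 fold change was 0.28 (SE 0.04, adjusted p = 4.72e-07), a rise of 21.3% in the mean, which is near the upper quartile of all tested genes at 0.26.

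HSPB1 (chromosome 7, 75931990 to 75933612, plus strand, GRCh37) encodes HSP27, a small heat shock protein that holds unfolded proteins without using ATP. It had 4.83, 4.62 and 3.79 CPM in the pGIPZ-NC libraries and 1.22, 2.61 and 1.45 CPM in the shUSP39 libraries. The highest shUSP39 library, replicate 2, was still below the lowest control. This gave a log2 fold change of -1.33 (SE 0.26, 95% interval -1.86 to -0.79, adjusted p = 0.000198). HSPB1 was a low gene in every library, with 107 to 154 counts in the controls and 39 to 80 in shUSP39, so its interval was the widest of the members that passed.

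DNAJB1 (chromosome 19, 14625581 to 14671203, minus strand, GRCh37), the J-domain partner of stress-induced HSP70, had 108, 121 and 122 CPM in the controls and 135, 120 and 137 CPM in shUSP39. In shUSP39 replicate 2 it lay inside the control range, so the groups overlapped. In DNAJB1 the log2 fold change was 0.16 (SE 0.06, adjusted p = 0.0321). This call rested on single libraries: the adjusted p was 0.204 without pGIPZ-NC replicate 1, 0.0515 without pGIPZ-NC replicate 2, 0.1 without shUSP39 replicate 1 and 0.155 without shUSP39 replicate 3.

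The HSP70 and HSP90 genes of the cytosol did not pass the test. HSPA8 (chromosome 11, 122928197 to 122933938, minus strand, GRCh37) is the HSP70 that cells make without stress. It had the highest CPM of the 9 measured members, with 4099, 3893 and 3965 CPM in the controls and 4033, 3853 and 3961 CPM in shUSP39. Its groups overlapped almost wholly. In HSPA8 the log2 fold change was -0.01 (SE 0.03, adjusted p = 0.755), with a 95% interval of -0.07 to 0.04, so a change in either direction of the size seen in BAG3 lies outside it.

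HSP90AA1 (chromosome 14, 102547079 to 102606036, minus strand, GRCh37), the stress-inducible HSP90, had 165, 160 and 158 CPM in the controls and 157, 154 and 152 CPM in shUSP39. All shUSP39 libraries were below the controls. The log2 fold change was -0.06 (SE 0.04, 95% interval -0.15 to 0.03, adjusted p = 0.3). Groups without overlap and lower in shUSP39 were seen in 22.5% of all tested genes, and in HSP90AA1, HSPB1 and HSPE1 among the members.

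HSP90AB1 (chromosome 6, 44213903 to 44221625, plus strand, GRCh37), the HSP90 that most cells make constantly, had 2.73, 2.06 and 3.15 CPM in the controls and 1.81, 2.55 and 1.39 CPM in shUSP39. Only 2 of its transcripts were in the table, with 41 to 89 counts together in a library, and other transcripts of the gene were not analysed here. These values are therefore not the level of the gene. The groups overlapped, and the log2 fold change of -0.46 (SE 0.28, adjusted p = 0.223) had a 95% interval from -1.04 to 0.11, which also holds a change beyond 2-fold. The ratio of HSP90AA1 to HSP90AB1 counts rested on these few counts and went from 62.7 ± 14 to 85.5 ± 24.6 (SD, n = 3), with a two-sided exact permutation p of 0.30, where 0.10 is the smallest that 3 libraries against 3 allow.

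**Figure D2:**
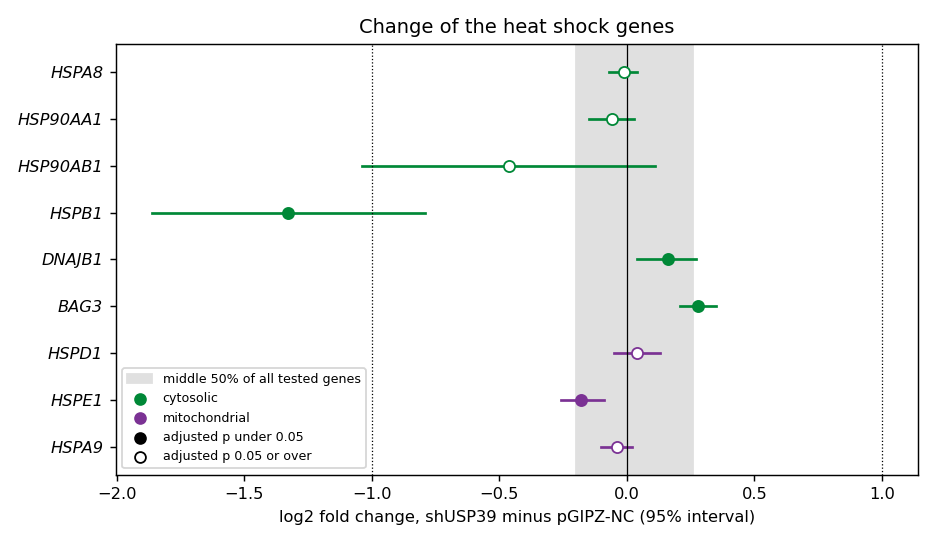
Log2 fold change of each member, shUSP39 minus pGIPZ-NC (horizontal axis), with its 95% interval, in green for cytosolic and purple for mitochondrial genes, filled where the adjusted p was under 0.05. The grey band holds the middle 50% of all tested genes (-0.20 to 0.26), dotted lines mark 2-fold, and HSPB1, HSP90AB1 and, just past its upper edge, BAG3 have their estimates outside the band.

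Of the mitochondrial genes HSPE1 fell, whereas HSPD1 and HSPA9 did not pass. HSPE1 (chromosome 2, 198364864 to 198368173, plus strand, GRCh37) had 428, 419 and 400 CPM in the controls and 390, 359 and 355 CPM in shUSP39. All shUSP39 libraries were below the controls, with replicate 1 the nearest to them. The log2 fold change was -0.18 (SE 0.04, adjusted p = 0.00087), a fall in the mean with a ratio of 0.885 to the controls. In a fit with shUSP39 replicate 1 as the only knockdown library it was -0.09 (adjusted p = 0.251), while it passed whichever of the 6 libraries was left out.

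HSPD1 (chromosome 2, 198351308 to 198381461, minus strand, GRCh37) had 242, 255 and 254 CPM in the controls and 242, 269 and 259 CPM in shUSP39. Replicate 1 was the lowest library of both groups, and the groups overlapped. The log2 fold change was 0.04 (SE 0.04, 95% interval -0.05 to 0.13, adjusted p = 0.536). In the GENCODE annotation the span of HSPD1 holds that of HSPE1 on the other strand, and use of strand in the counting is not given in the sources used here, so reads of the pair cannot be told apart where exons overlap.

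HSPA9 (chromosome 5, 137889445 to 137911364, minus strand, GRCh37), also called mortalin, pulls proteins into the matrix and works with the J-domain and exchange factors listed below. It had 2731, 2665 and 2673 CPM in the controls and 2682, 2590 and 2578 CPM in shUSP39. Only shUSP39 replicate 1 lay among the controls. On the log2 scale the fold change was -0.04 (SE 0.03, 95% interval -0.10 to 0.02, adjusted p = 0.284).

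Because HSP60 and HSP10 form 1 machine and their genes share a promoter region, the ratio of HSPE1 to HSPD1 counts was taken within each library. It was 1.77, 1.64 and 1.58 in pGIPZ-NC and 1.61, 1.33 and 1.37 in shUSP39. The lowest control was under the highest shUSP39 library, so the groups overlapped. The mean went from 1.67 ± 0.0995 to 1.44 ± 0.152 (SD, n = 3), a log2 difference of -0.21 with a two-sided exact permutation p of 0.20, where 0.10 is again the smallest possible, so the test could not reach 0.05.

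Set side by side, 2 of 6 measured cytosolic members rose, 1 fell and 3 did not pass, and 0 of 3 mitochondrial members rose, 1 fell and 2 did not pass. Over all tested genes 16.1% passed as higher and 17.5% as lower in shUSP39. Both sets had a median log2 fold change of -0.04. The range was wider in the cytosolic set, -1.33 to 0.28, than in the mitochondrial set, -0.18 to 0.04, with HSPB1 at its lower and BAG3 at its upper end. The cytosolic members thus did not share a direction, and whether the sets differ was not tested. Without overlap between groups, BAG3 was higher, as were 21.7% of all tested genes, and no mitochondrial member was.

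Levels were compared between genes only per length, as CPM per kilobase of the main transcript in pGIPZ-NC. Among the members with 1 transcript row in the table HSPA8 was highest at 1760 ± 46.2, followed by HSPE1 at 747 ± 25.6, HSPA9 at 611 ± 8.21, BAG3 at 128 ± 3.39 and HSPB1 at 5.68 ± 0.707 CPM per kilobase (SD, n = 3). The ranges of neighbours in this order did not overlap. The levels of HSPA8 and HSPE1 are also uncertain, since both have processed pseudogenes and the use of reads that match several places is not given. HSPE1 reads also cannot be told from those of HSPD1 where exons overlap. HSPD1 at 111 ± 3.3, DNAJB1 at 52.2 ± 3.47, HSP90AA1 at 49.9 ± 1.14 and HSP90AB1 at 1.04 ± 0.215 CPM per kilobase had several rows, and their levels are uncertain, since the treatment of reads that transcripts share is not given in the sources used here. DNAJB1 and HSP90AA1 overlapped in level. HSPE1 and HSPD1 encode parts of the same chaperonin, but their levels cannot be set against each other for that reason.

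In the members with several measured transcripts 1 row held nearly all counts. NM_005348.3 of HSP90AA1 held 98.1% of its counts in pGIPZ-NC and 97.3% in shUSP39, and the longer form NM_001017963.2 held 1.93% ± 0.215 and 2.73% ± 0.435 (SD, n = 3). NM_006145.2 held 98.3% and 97.7% of DNAJB1, and NM_002156.4 held 99.7% of HSPD1 in both groups. Transcript usage was tested in these 3 genes with edgeR's diffSpliceDGE. HSP90AA1 had an adjusted p of 0.65 (unadjusted 0.0475), and DNAJB1 and HSPD1 had an adjusted p of 1. None passed, where 2.03% of 1628 tested genes did.

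The other genes of these pathways came from fixed lists, 85 tested genes in all, of which 16 rose and 16 fell at an adjusted p under 0.05, close to the shares of all tested genes (16.1% higher and 17.5% lower). Their median log2 fold change was 0.02. The factors that drive the heat shock genes and their regulators did not pass in any of 5 cases. HSF1 itself had 344 ± 7.56 CPM in the controls and 358 ± 10.2 CPM in shUSP39 (SD, n = 3), with a log2 fold change of 0.06 (adjusted p = 0.233), which passed only under upper-quartile scaling (adjusted p = 0.0266). HSF1, HSPA1B, HSPA6, STUB1 and GRPEL1 were chosen for naming after their values were seen. So were TRAP1, PTGES3, TOMM34, PPP5C, HSPA12A, HSPA13, DNAJA1 and DNAJB6, for which results under other settings are not given here.

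Among the other HSP70 and HSP110 genes 5 of 9 rose, 1 fell and 3 did not pass, with a median of 0.29, where 16.1% of all tested genes rose and 17.5% fell. HSPA1B, the stress-induced HSP70, had 128, 134 and 143 CPM in the controls and 205, 201 and 208 CPM in shUSP39. The groups were far apart, and the log2 fold change was 0.60 (SE 0.05, adjusted p = 5.41e-11). Its near-identical copy HSPA1A was at 6.07 ± 1.53 and 6.7 ± 0.814 CPM (SD, n = 3, adjusted p = 0.587), and how the counting divides reads between them is uncertain. Their sum was 141 ± 8.34 CPM in the controls and 212 ± 4.51 CPM in shUSP39, a ratio of 1.5.

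HSPA6, an HSP70 that is strictly stress-induced in human cells, had 7.06, 6.68 and 6.8 CPM in the controls and 10.2, 9.18 and 11.9 CPM in shUSP39. All shUSP39 libraries were above the controls (log2 fold change 0.60, SE 0.14, adjusted p = 0.00129). HSPA2, a testis-enriched HSP70, was at 0.415 ± 0.174 CPM in the controls and 1.02 ± 0.179 CPM in shUSP39 (SD, n = 3), and its call (log2 fold change 1.29, adjusted p = 0.0439) was lost whichever of the 6 libraries was left out, at an adjusted p of 0.0588 to 0.186, with shUSP39 replicate 1 alone (0.141) and with no filter (0.0593). HSPA8 and HSPA9 are the members of the same family, and neither passed. For comparison with the members, the motif found in HSPA6 has 3 units and that in HSPA1B has 2. HSPA1A and HSPA1L, which did not pass, also held a 2-unit motif, the same stretch of chromosome 6 read on opposite strands. HSPA2, HSPA12A and HSPA13, which rose as well, held no match. In other lists DNAJA1 and DNAJB6 held a 3-unit motif and did not pass (adjusted p = 0.13 and 0.0913). CHORDC1 also held a 3-unit motif and rose. Whether the motifs go with the changes was not tested.
HSPA6, chr1:161524458-161524486, plus strand: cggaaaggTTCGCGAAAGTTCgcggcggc
HSPA1B, chr6:31827622-31827651, plus strand: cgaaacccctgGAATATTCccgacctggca

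Only 3 of the 9 other small heat shock protein genes had enough counts to be tested, and HSPB8 rose. HSPB8, which forms a complex with BAG3 and HSP70 that delivers misfolded proteins to autophagy, had 0.565, 1.35 and 1.66 CPM in the controls and 6.34, 6.7 and 7.91 CPM in shUSP39. The groups were far apart, and the log2 fold change was 2.55 (SE 0.26, adjusted p = 1.16e-08), opposite in sign to that of HSPB1. STUB1, the ubiquitin ligase CHIP that binds HSP70, was at 2.34 ± 0.352 CPM in the controls and 3.69 ± 0.342 CPM in shUSP39 (SD, n = 3, log2 fold change 0.65, adjusted p = 0.0266), a call that was lost without pGIPZ-NC replicate 1 or 3 or shUSP39 replicate 2, at an adjusted p of 0.0519 to 0.106, and with shUSP39 replicate 1 alone (0.274).

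**Figure D3:**
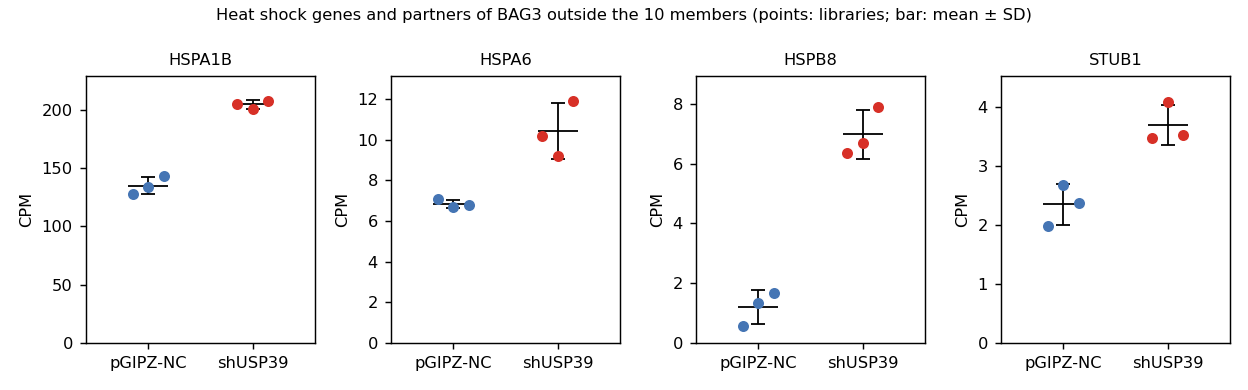
Level in CPM (vertical axes, each from 0) of HSPA1B, HSPA6, HSPB8 and STUB1 in the 3 pGIPZ-NC libraries (blue) and the 3 shUSP39 libraries (red), with the mean ± SD. Every shUSP39 library is above every control library in these 4 genes, of which HSPA1B, HSPA6 and STUB1 were chosen after their values were seen.

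The partners of cytosolic HSP70 and HSP90 are given by list, against 16.1% of all tested genes that rose and 17.5% that fell. Among other J-domain genes 2 of 12 rose and 1 fell, with DNAJB2, which guides clients to the proteasome, at a log2 fold change of 0.31 (adjusted p = 0.00289) and the ribosome-bound DNAJC2 at 0.20 (adjusted p = 0.0476). Among the other exchange factors and adaptors of HSP70, a list without the member BAG3, 1 of 7 rose and 2 fell. The one that rose was STUB1 (0.65, adjusted p = 0.0266), whose call was lost without single libraries, as given above. Those that fell were the HSP70-interacting protein gene ST13 at -0.20 (adjusted p = 0.00471) and BAG2, an inhibitor of CHIP, at -0.12 (adjusted p = 0.0282). Among HSP90 cochaperones 2 of 12 rose and 3 fell, with CHORDC1 at 0.23 (adjusted p = 0.00869) and SUGT1 at -0.43 (adjusted p = 0.02). PTGES3 also rose, at 0.94 (adjusted p = 0.00208), with 2.47 CPM in the controls and 4.74 CPM in shUSP39. TOMM34 at -0.21 (adjusted p = 4.92e-05) and PPP5C at -0.22 (adjusted p = 0.0084) also fell. In the TRiC chaperonin and prefoldin, which fold actin and tubulin, 1 of 12 rose and 4 fell. The subunits CCT8 and CCT5 were at 0.55 (adjusted p = 0.0066) and -0.33 (adjusted p = 1.16e-05). Per kilobase in the controls CCT8 was at 3.52 CPM and CCT5 at 33.1 CPM. SUGT1 was at 8.81 CPM in the controls. Whether the measured rows hold all transcripts of these genes, STUB1 and PTGES3 among them, was not tested. Leaving out single libraries ended the calls of DNAJC2 (pGIPZ-NC replicates 2 and 3 and shUSP39 replicates 1 and 3, adjusted p 0.106 to 0.33), BAG2 (pGIPZ-NC replicates 1 and 3 and shUSP39 replicate 2, 0.0664 to 0.15), SUGT1 (pGIPZ-NC replicate 2 and shUSP39 replicates 2 and 3, 0.0527 to 0.0712) and CCT8 (pGIPZ-NC replicate 2, 0.052). BAG2 also did not pass under upper-quartile scaling (adjusted p = 0.178) and with library size only (0.0873), nor DNAJC2 under the DESeq2 Wald test (0.0562) and limma-voom (0.0503). With shUSP39 replicate 1 alone DNAJC2, BAG2, SUGT1 and CCT8 did not pass, nor did ST13 (adjusted p = 0.173) and CHORDC1 (adjusted p = 0.191).

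Among other mitochondrial chaperones, which work beside HSPD1, HSPE1 and HSPA9, 2 of 11 rose and 2 fell, near the 16.1% and 17.5% of all tested genes. GRPEL1, the exchange factor of HSPA9, was at 305 ± 5.28 CPM in the controls and 360 ± 10.5 CPM in shUSP39 (SD, n = 3), a log2 fold change of 0.24 (adjusted p = 7.22e-06) against -0.04 in HSPA9. DNAJA3, its J-domain partner, rose by 0.46 (adjusted p = 0.00142) on the log2 scale, and DNAJC15, a J-domain protein of the import motor, had -0.51 (adjusted p = 4.03e-05). TRAP1, the other gene of this list that fell, was at 105 ± 1.39 CPM in the controls and 87.6 ± 5.33 CPM in shUSP39 (SD, n = 3). Its log2 fold change was -0.26 (adjusted p = 0.000479), and the groups did not overlap. Among the genes listed as mitochondrial proteases 1 of 11 rose and 3 fell, with AFG3L2 at -0.45 (adjusted p = 1.36e-09) and OMA1 at 0.27 (adjusted p = 0.015). Of 3 stress transcription factor genes ATF5, which is known to drive the mitochondrial response, passed at 0.26 (adjusted p = 0.0312). Leaving out single libraries ended the calls of OMA1 (pGIPZ-NC replicates 2 and 3 and shUSP39 replicate 1, adjusted p 0.051 to 0.124) and ATF5 (pGIPZ-NC replicates 1 and 2 and shUSP39 replicates 2 and 3, 0.0921 to 0.151). With shUSP39 replicate 1 alone ATF5 (adjusted p = 0.651) and DNAJA3 (adjusted p = 0.134) did not pass. With the transcript row that has the most counts in place of the sum, ATF5 was at 0.13 (adjusted p = 0.467).

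**Figure D4:**
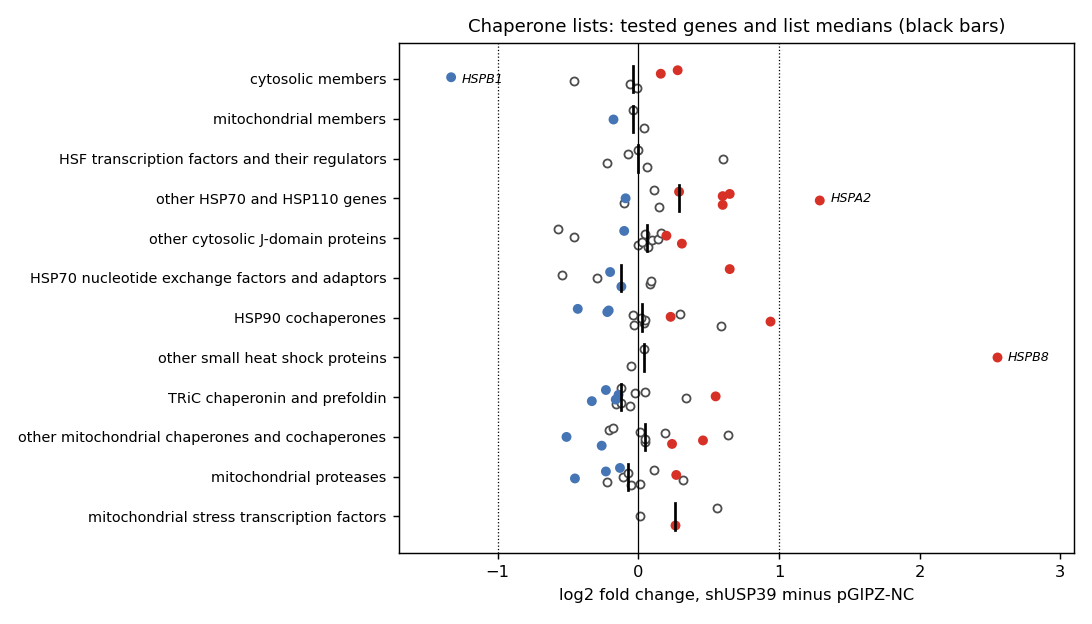
Log2 fold change, shUSP39 minus pGIPZ-NC (horizontal axis), of every tested gene of the member sets and of the 10 other chaperone lists (vertical axis), red where higher and blue where lower at an adjusted p under 0.05 and open otherwise, with a black bar at the list median. Dotted lines mark 2-fold, which only HSPB1, HSPA2 and HSPB8 passed with an adjusted p under 0.05.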

How the data were processed

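The authors deposited a table of raw read counts, with a row for each RefSeq mRNA and a column for each of the 6 libraries. The submitters' processing notes name HISAT2, Cufflinks and genome build hg19. The counting tool, its use of strand and of reads that match several places (HSPA8, HSPD1, HSPE1 and both HSP90 genes have processed pseudogenes) are not given in the sources used here. The deposited columns of group signal, fold, p-value and q-value hold the study's own comparison and were not used. The 21368 rows were summed to 16571 symbols, after 46 of 47 symbols turned into dates were restored through the transcript. Genes were filtered with filterByExpr and tested with edgeR 4.0.16 (R 4.3.3; TMM scaling, robust quasi-likelihood, group as the only term), giving a biological coefficient of variation of 7.59%. Genes were called at an adjusted p under 0.05, and beyond 2-fold where said. CPM use TMM-scaled library sizes. Depth limits the low genes: counting error alone is large in HSP90AB1 and HSPB1. Lengths and positions came from GENCODE 44 on GRCh37 (MANE Select transcripts). Named genes were all members and, from each other list, the called genes or else up to 2 genes past the adjusted p with the largest change and at least 5 CPM. Further genes were chosen after their values were seen, as given above. The members and lists were chosen with earlier results of these data known. The scripts were tested on simulated data. Alternatives were other scalings (DESeq2 1.42.0 size factors, upper quartile, library size), other filters, the DESeq2 Wald test, limma-voom (limma 3.58.1), a replicate block, the transcript row with the most counts, leaving out each library, and shUSP39 replicate 1 alone.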

Additional observations from a re-analysis of the deposited data

How the results depend on the processing

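Of the members, BAG3 (log2 fold change 0.26 to 0.32) and HSPB1 (-1.85 to -1.12) kept their direction and their side of the threshold in all 16 alternatives, and HSPE1 (-0.22 to -0.09) in 15. The number of cytosolic members that rose was 1 to 2 when each library was left out, since DNAJB1 passed in 2 of those 6 fits. With shUSP39 replicate 1 alone, where its spread is assumed to be that of the controls, 0 mitochondrial members fell, and 2244 genes in place of 3598 passed the adjusted p with fewer samples. With at least 10 counts in every library, which leaves fewer genes, 471 genes were called in place of 728. HSPA8 changed sign, never past the threshold, to 0.03 under upper-quartile scaling, 0.01 with library size only, 0.00561 without pGIPZ-NC replicate 1, 0.00304 without shUSP39 replicate 2 (-0.04 to 0.01 over all 6 libraries left out in turn) and 0.02 with shUSP39 replicate 1 alone. So did HSPD1 at -0.05 with shUSP39 replicate 1 alone and HSPA9 at 0.00471 under upper-quartile scaling. The cause was not tested. Genes past the adjusted p were higher in shUSP39 in 48% by the main scaling and in 58% under upper-quartile scaling. Correlations of deviations were 0.181, 0.0344 and 0.0615 for equal replicate numbers and -0.121 to 0.0687 for unequal ones, so pairing by number is uncertain. With the replicate block 4 members passed, the same genes as without it, and 3981 genes in all passed in place of 3598.

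Depth limits the genes with few counts, among them HSP90AB1, HSPB1, HSPA2, HSPB8 and STUB1. Other transcripts of HSP90AB1, HSPH1 and USP39 were not analysed here. Levels of genes with several transcript rows are uncertain, because the treatment of reads shared between transcripts is not given in the sources used here.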

Other observations

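The genes whose levels across the libraries were most like those of HSPD1 were AKAP8L (Pearson's r of log2 CPM 0.985), RNPEPL1 (0.972) and CYBRD1 (0.961), out of 6580 genes compared over 6 libraries. These r are a description over few libraries that share their groups. The same could not be done for HSPH1, which was not analysed here.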
